A study of Mus musculus with 6 samples.

Results

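The genes described here are 41 named genes of macrophages and monocytes, read in the RNA of breast tumors that grew from 4T1 mammary carcinoma cells in BALB/c mice. The members were chosen by gene symbol, with the difference between the groups already in view, so the differences below are descriptions and nothing is inferred from their direction. Of the 41, 38 had a row among the 16763 genes of the deposited table, and 36 had enough reads to enter a test over 12891 genes. Marco, Trem1 and Trem2 were not analysed here. Tumors of mice given DMDD carried in liposomes formed one group, and tumors of mice of the model group, which bore 4T1 tumors and for which the labels give no treatment, formed the other, with 3 libraries each. Both groups shared the 4T1 tumor, the BALB/c strain and a sex given as male. DMDD is known from the labels by its abbreviation alone, and the sources used here give no dose, duration, vehicle for the model group, age of the mice or link between mouse and library. The sample descriptions call the animals rats although the organism, strain and gene symbols are those of mouse. No source ties a library to a separate animal, so p-values measure the spread between these libraries, which may be technical in part. Libraries of the same group differed by far more than sampling noise, with a chi-square of 14.2 to 52.1 per degree of freedom over genes.

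Macrophages are phagocytes that arise from embryonic precursors or from circulating monocytes, and a tumor can hold both kinds. The transcription factor PU.1, encoded by Spi1, sets their identity together with C/EBP factors, and the receptor encoded by Csf1r passes on the signal that keeps them alive. Long-lived tissue macrophages tend to carry scavenger receptors such as the mannose receptor, monocytes newly arrived from blood carry Ly6c2, and macrophages that have taken up much lipid carry Gpnmb and Cd9.

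Library totals ran from 13419951 to 14580202 counts in the DMDD liposome group and from 13037500 to 15616840 in the model group. At these depths 3 counts corresponded to 0.193 to 0.230 CPM, the count scaled for library size and composition by the TMM method. The number of genes called depended most on model replicate 1: edgeR called 0 of 12891 genes with all 6 libraries and 112 of 13159 without it, at an adjusted p under 0.05 in both (986 with all libraries at an unadjusted p under 0.05, and 59 adjusted by DESeq2). Model replicate 2 carried genes of skin keratinocytes, whose 9 markers summed to 243 CPM there, against 10.7 to 13.6 CPM in the DMDD liposome libraries and 9.97 and 16.8 CPM in the other model libraries.

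Defining macrophage genes were detected in every library. On the FPKM scale, which is per gene length, the highest member was Lyz2, the lysozyme of myeloid cells, with a mean of 757 FPKM over the 6 libraries, above 99.7% of all genes in the table. Cd9, a tetraspanin that many cell types express, stood at 492 FPKM, and Cebpb, an inducible C/EBP factor, at 385 FPKM. Lgmn, a lysosomal endopeptidase, followed at 193 FPKM. The signalling adaptors Tyrobp and Fcer1g stood at 149 and 119 FPKM, and Csf1r at 47.6 FPKM. The general macrophage markers Cd68 and Aif1 (IBA1) lay close together at 41.5 and 40.6 FPKM. At the low end stood Cd163 at 2.80 FPKM, Gpnmb at 1.97 FPKM and Lyve1 at 0.733 FPKM. Vsig4, a complement receptor of some resident macrophages, had 6, 13 and 1 counts in the DMDD liposome libraries and 2, 1 and 3 in the model libraries. Retnla, a secreted product of alternatively activated macrophages, had 0, 0 and 2 counts in the DMDD liposome libraries and 0, 0 and 1 in the model libraries. Both fell below the minimum count for testing, and no difference between the groups was detectable for Retnla at this depth. Neighbours in this order mostly did not differ beyond their spread: the ranges over the 6 libraries overlapped in 35 of 37 neighbouring pairs, the exceptions being Cebpb above Lgmn and Gpnmb above Lyve1.

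**Figure D1:**
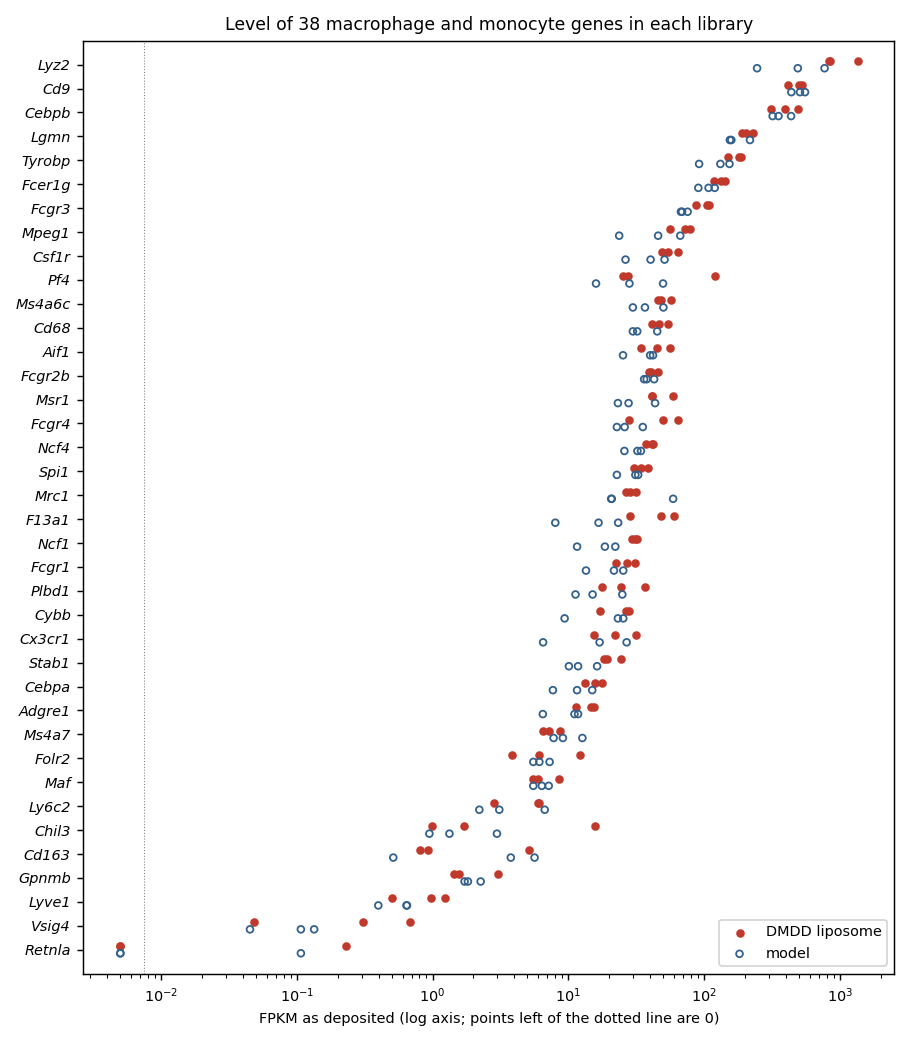
FPKM as deposited on a log axis for the 38 genes found in the table, highest mean at the top; filled points are the 3 DMDD liposome libraries and open points the 3 model libraries. Lyz2 leads at a mean of 757 FPKM and Retnla is last at 0.0560 FPKM, with 0 in 4 libraries.

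Of the 36 tested members, 32 had a positive log2 fold change in DMDD liposome over model, beside 51.2% of all genes tested, and the median was 0.39 (1.31-fold) beside 0.01 over all genes tested. The summed level of the 38 genes was 5995, 5713 and 5428 CPM in DMDD liposome replicates 1 to 3, against 5079, 4113 and 3610.1 CPM in model replicates 1 to 3. All 3 DMDD liposome libraries were thus above all 3 model libraries, with model replicate 3 the lowest. A few abundant genes weigh most in these sums. Lyz2 alone gave 1734, 1107 and 1111 CPM in DMDD liposome replicates 1 to 3 and 1017, 646 and 332 CPM in model replicates 1 to 3. In these bulk samples, the number of macrophages, the RNA of these genes per macrophage and the part of other cells cannot be told apart. No member passed edgeR's adjusted threshold of 0.05, where the background was 0.0% of genes, and at an unadjusted p under 0.05 there were 7 members higher and 0 lower, where the background was 4.34% higher and 3.31% lower, 7.65% in all. For 6 members every DMDD liposome library was above every model library, where the background was 7.21%, and for 0 members below, where it was 5.66%. DESeq2 called 1 member, F13a1, as higher, where the background was 0.214% higher, 0.194% lower and 0.408% in all. The authors' deposited table also called F13a1, with model over DMDD liposome at -1.49 on the log2 scale and an adjusted p of 0.0211, and it called 0.346% of its genes. Since the members were chosen with this contrast known, no weight is put on these counts.

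Single libraries moved these values. Model replicate 3 was the lowest library for 21 of the 36 tested members (58.3%), while it was the lowest for 19.5% of all genes tested. The median of 0.39 with all libraries was 0.25 without model replicate 3 and 0.53 without model replicate 1. Without model replicate 1, DESeq2 called 10 members, all higher (Csf1r, Lyz2, Cd68, Mpeg1, Stab1, Plbd1, F13a1, Msr1, Fcgr3 and Ncf1), where the background was 3.19% of genes, and edgeR called 0, where the background was 0.327%. Without DMDD liposome replicate 2, DESeq2 called Fcgr3 and Fcgr4, where the background was 0.46% of genes. The DESeq2 call of F13a1 was kept in 2 of the 6 fits without 1 library, those without DMDD liposome replicate 3 and without model replicate 1, and lost in the other 4. Without model replicate 3, the log2 fold change of 21 of the 36 members was less than its value with all libraries divided by 1.5, or of the other sign, and without model replicate 1 it was over 1.5 times that value in 14.

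**Figure D2:**
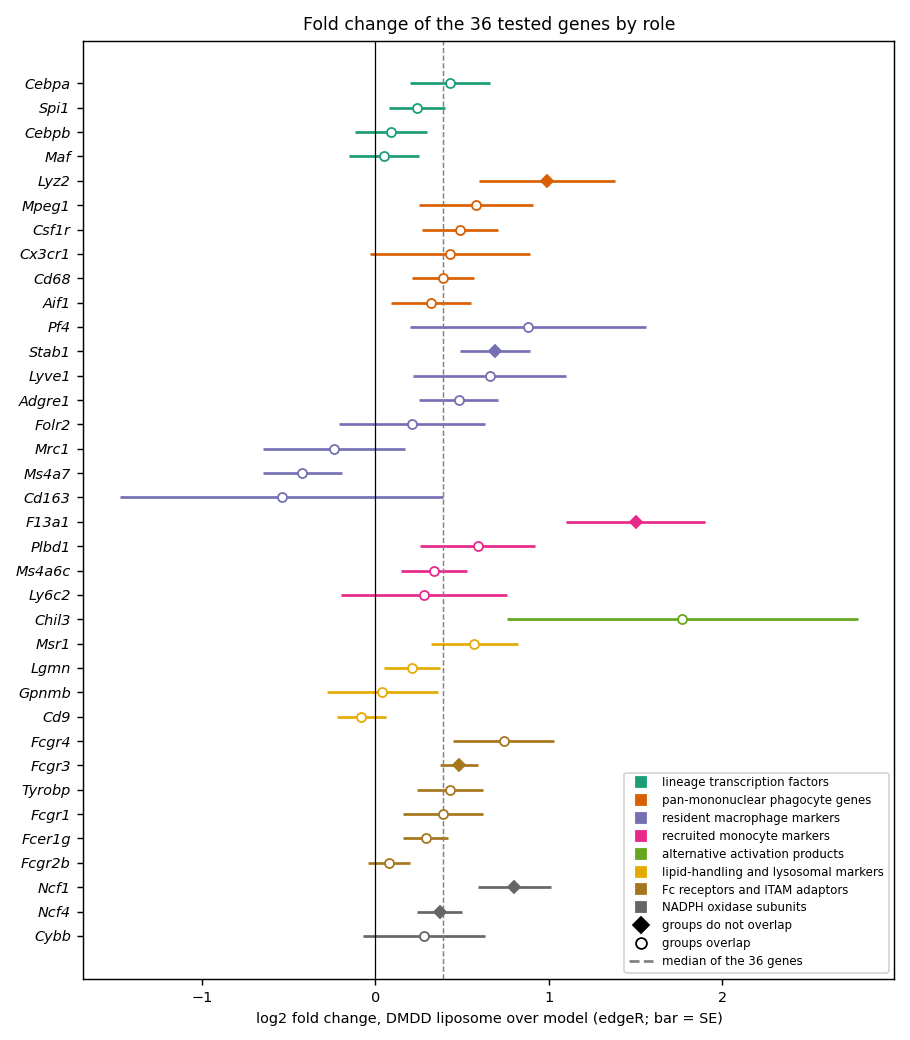
Log2 fold change of DMDD liposome over model for the 36 tested genes, from edgeR, grouped and colored by role, with bars of 1 SE; filled diamonds mark genes whose 3 and 3 values did not overlap. Most genes lie right of 0 around the dashed median of 0.39, while Mrc1, Ms4a7, Cd163 and Cd9 lie left of it.

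All 4 lineage transcription factors had overlapping groups, with log2 fold changes from 0.05 to 0.43. Spi1 measured 68.4, 79.5 and 61.2 CPM in the DMDD liposome libraries, against 66.5, 63.5 and 47.6 CPM in the model libraries, a log2 fold change of 0.24 ± 0.16 (SE). Its groups overlapped, and only model replicate 3 lay well below the rest. Cebpa, which drives early myeloid differentiation, measured 40.4, 35.4 and 46.7 CPM in DMDD liposome and 39.5, 30.6 and 20.8 CPM in model (0.43 ± 0.23, and 0.21 without model replicate 3), again with model replicate 3 the lowest. Cebpb was far more abundant, with 452, 757 and 590.2 CPM in DMDD liposome and 659, 481 and 546 CPM in model, and its groups were interleaved (0.09 ± 0.21). Its sign turned without DMDD liposome replicate 2 (-0.12) and without model replicate 2 (-0.01). Maf, the c-MAF factor of mature macrophages, stood at 0.05 ± 0.20 and also turned sign in those fits, to -0.18 and -0.05. The class had a median of 0.17 over 4 genes, which was 0.00 without DMDD liposome replicate 2 and 0.28 without model replicate 1, with 0 called by edgeR or DESeq2 and 0 at an unadjusted p under 0.05.

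Among genes shared by most mononuclear phagocytes, 6 of 6 had a positive fold change, with a median of 0.46. Lyz2 measured 1734, 1107 and 1111 CPM in the DMDD liposome libraries, against 1017, 646 and 332 CPM in the model libraries (0.99 ± 0.39). Its groups did not overlap, but model replicate 1 came close to the lower DMDD liposome values. Lyz2 reads can be uncertain because 15.4% of the 50-base stretches of its transcript also occur in Lyz1, although Lyz1 was given only 1 to 6 counts per library. Mpeg1, which encodes a pore-forming protein of phagosomes, measured 307, 245 and 337 CPM in DMDD liposome and 289.6, 199 and 105 CPM in model (0.58 ± 0.33, and 0.27 without model replicate 3), so that the groups overlapped through model replicate 1. Csf1r measured 306, 243 and 264 CPM in DMDD liposome and 250.1, 197 and 132 CPM in model (0.49 ± 0.22, and 0.27 without model replicate 3), with the same overlap. Its exons overlap those of Hmgxb3 on the opposite strand, which had 376 to 567 counts per library, so a part of these reads cannot be assigned if strand was not used. Cd68, a glycoprotein of lysosomal membranes, stood at 0.39 ± 0.18, and Aif1 at 0.32 ± 0.23 (0.12 without model replicate 3). Cx3cr1, the fractalkine receptor, stood at 0.43 ± 0.46, which was 0.04 without model replicate 3 and 0.94 without model replicate 1. In all 6 genes model replicate 3 was the lowest library. Without it the class median was 0.27, and without model replicate 1 it was 0.83.

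Resident macrophage markers differed in direction. Of the 8 tested, 5 were positive and 3 negative, with a median of 0.34 that became -0.31 without DMDD liposome replicate 2. Stab1, a scavenger receptor, measured 142, 198 and 153 CPM in DMDD liposome and 130, 94.1 and 82.6 CPM in model (0.69 ± 0.20), and its groups did not overlap. Stab1 and Lyve1, a hyaluronan receptor that stood at 0.66 ± 0.44, are also made by endothelium. The 9 tested endothelial markers were all positive too, with a median of 0.43 and summed levels of 268 to 389 CPM in the DMDD liposome libraries against 182 to 335 CPM in the model libraries, and their part in the values of Stab1 and Lyve1 was not tested. Stab1 exons also overlap those of Nt5dc2 on the opposite strand, which had 655 to 1067 counts per library. Adgre1, the adhesion receptor that defines mouse macrophages in many stains, stood at 0.48 ± 0.23.

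The mannose receptor gene Mrc1 had its extreme value in 1 model library. It measured 138, 173 and 153 CPM in the DMDD liposome libraries and 111, 112 and 326 CPM in the model libraries. Model replicate 3, the lowest library for most members, was thus the highest for Mrc1, and the fold change of -0.24 ± 0.41 became 0.46 without it. Set against Cd68 per gene length, Mrc1 was 0.570, 0.588 and 0.692 times Cd68 in the DMDD liposome libraries and 0.457, 0.651 and 1.98 times in the model libraries. Cd163, the receptor for hemoglobin bound to haptoglobin, was named after its values were seen, because its SD relative to its mean was the largest of the tested resident markers in both groups (109% in DMDD liposome and 79.3% in model). It had 57, 311 and 53 counts in DMDD liposome and 30, 262 and 395 counts in model. High and low libraries thus occurred in both groups, and the fold change of -0.54 ± 0.93 ranged from -1.98 to 0.08 when single libraries were left out. Ms4a7, a membrane-spanning protein of mature macrophages, was also highest in model replicate 3 (22.3 CPM) and stood at -0.42 ± 0.23, negative in every fit without 1 library (-0.57 to -0.19).

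Pf4, a chemokine of platelets that some resident macrophages also make, measured 18.7, 85.9 and 17.5 CPM in the DMDD liposome libraries and 34.9, 11.2 and 20.2 CPM in the model libraries. The single high library, DMDD liposome replicate 2, set its fold change of 0.88 ± 0.68, which was -0.29 without that library. Ppbp, another chemokine of platelets, was low but also highest in DMDD liposome replicate 2, with 0.496, 1.66 and 0.273 CPM in DMDD liposome and 0.383, 0.129 and 0.985 CPM in model. Itga2b, an integrin chain of platelets and megakaryocytes, was lowest in that library, with 3.05, 2.49 and 3.95 CPM in DMDD liposome and 2.68, 3.80 and 5.52 CPM in model. The part of platelets in the Pf4 value was not tested. Folr2, a folate receptor of resident macrophages, was likewise highest in DMDD liposome replicate 2, at 16.4 CPM against 4.96 and 7.90 CPM in the other DMDD liposome libraries and 7.28 to 9.85 CPM in the model libraries. Its fold change of 0.21 ± 0.42 was -0.39 without that library. DMDD liposome replicate 2 was also the highest of the 6 libraries for fat cell markers, at a summed 65.6 CPM, against 31.2 and 43.6 CPM in the other DMDD liposome libraries and 24.6 to 30.1 CPM in model, and the part of that tissue in Pf4 and Folr2 was not tested.

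**Figure D3:**
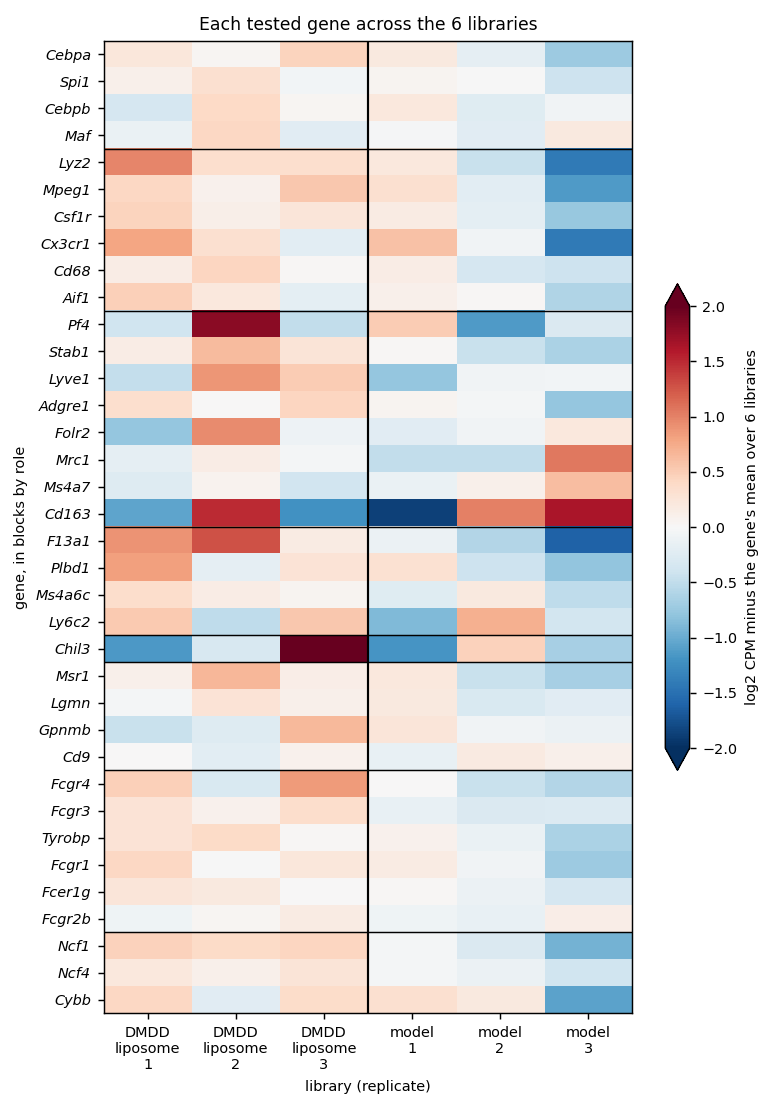
Log2 CPM of each tested gene minus its own mean over the 6 libraries, in blocks by role, with the DMDD liposome libraries left of the line and the model libraries right of it; red is above and blue below the gene's mean, and colors end at 2 in either direction. The column of model replicate 3 is mostly blue, with Cd163 and Mrc1 the strongest red in it. In the column of DMDD liposome replicate 2, Pf4 and Cd163 are the strongest red, and Folr2 is also red.

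Markers of recruited monocytes had a median of 0.47 over 4 tested genes, all positive. F13a1, the catalytic subunit of a transglutaminase that crosslinks fibrin, which monocytes and some macrophages make, measured 188, 243 and 113 CPM in the DMDD liposome libraries and 93.2, 66.9 and 32.9 CPM in the model libraries. Its groups did not overlap, and at 1.5 ± 0.40 (2.82-fold) it had the largest fold change of the members whose groups were separate. Over fits without 1 library it stayed between 1.17 and 1.86. Ms4a6c, a membrane-spanning protein of monocytes, measured 102, 89.3 and 83.5 CPM in DMDD liposome and 67.5, 92.3 and 56.4 CPM in model (0.34 ± 0.19), with model replicate 2 inside the DMDD liposome range. Plbd1, a phospholipase-like lysosomal protein, stood at 0.59 ± 0.33. The defining marker of recruited monocytes, Ly6c2, was low and did not separate the groups. It had 72, 33 and 76 counts in DMDD liposome and 25, 90 and 42 counts in model (0.28 ± 0.48, and -0.01 without model replicate 1). Reads of Ly6c2 are uncertain, since 32.6% of its 50-base stretches also occur in Ly6c1, which was given 281 to 1733 counts per library and is made by endothelium among other cells.

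Chil3, a chitinase-like protein of monocytes and of alternatively activated macrophages, had 21, 35 and 349 counts in the DMDD liposome libraries and 19, 71 and 32 counts in the model libraries. Only DMDD liposome replicate 3 was high, and the fold change of 1.77 ± 1.01 was -0.40 without it. Of its 50-base stretches, 18.5% also occur in Chil4, which was not used here.

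Lipid-handling and lysosomal markers had a median of 0.13 over 4 tested genes, and of 0.04 to 0.27 when 1 library was left out. Cd9 measured 604, 517 and 639 CPM in DMDD liposome and 540.2, 681 and 642 CPM in model (-0.08 ± 0.14), with the groups interleaved. Lgmn measured 376, 466 and 412 CPM in DMDD liposome and 439.7, 312 and 329.9 CPM in model (0.21 ± 0.16), where model replicate 1 lay among the DMDD liposome libraries. Msr1, a scavenger receptor that takes up modified lipoproteins, measured 161, 239 and 165 CPM in DMDD liposome and 175, 111 and 95.2 CPM in model (0.57 ± 0.25), with the same model library overlapping. Gpnmb, a glycoprotein of lipid-laden macrophages, had only 89, 95 and 198 counts in DMDD liposome and 133, 127 and 121 counts in model (0.04 ± 0.32, and -0.38 without DMDD liposome replicate 3).

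Receptors for the constant part of antibodies, and adaptors that carry an immunoreceptor activation motif (ITAM), were positive in 6 of 6 genes, with a median of 0.41. Fcgr3, a low-affinity activating receptor, measured 137, 119.6 and 145 CPM in the DMDD liposome libraries and 102, 92.7 and 93.3 CPM in the model libraries. Its groups did not overlap, at 0.48 ± 0.11, and the value stayed between 0.42 and 0.55 without any 1 library. Fcgr2b, the inhibitory receptor of the family, measured 145, 157 and 173 CPM in DMDD liposome and 144, 138 and 168 CPM in model (0.08 ± 0.12), so its groups overlapped. Per gene length Fcgr2b was 0.373, 0.465 and 0.421 times Fcgr3 in the DMDD liposome libraries and 0.500, 0.525 and 0.635 times in the model libraries, and these ratios did not overlap. The pair was chosen after its values were seen, the difference between its fold changes was not tested, and 4.75% of the 50-base stretches of Fcgr2b also occur in Fcgr3. Fcgr4, a further activating receptor, measured 61.3, 35.9 and 80.1 CPM in DMDD liposome and 44.4, 32.6 and 29.4 CPM in model (0.74 ± 0.29), overlapping through DMDD liposome replicate 2. Fcgr1, the high-affinity receptor, stood at 0.39 ± 0.23.

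Fcer1g, the gamma chain shared by the activating receptors, measured 104, 101 and 88.3 CPM in DMDD liposome and 89.6, 80.9 and 69.7 CPM in model (0.29 ± 0.13). Tyrobp, which encodes the adaptor DAP12 for TREM receptors, measured 99.2, 107 and 83.5 CPM in DMDD liposome and 87.1, 74.5 and 53.2 CPM in model (0.43 ± 0.19). In both, model replicate 1 lay just above DMDD liposome replicate 3, and this alone made the groups overlap.

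The phagocyte NADPH oxidase, which makes superoxide, was positive in its 3 genes. Ncf1, a cytosolic organizer subunit, measured 89.9, 86.0 and 88.2 CPM in the DMDD liposome libraries and 63.9, 53.6 and 34.2 CPM in the model libraries. The DMDD liposome values were nearly level, with an SD of 2.19% of their mean, against 29.8% in model, and the groups did not overlap (0.80 ± 0.21). Ncf4, another cytosolic subunit, measured 59.4, 55.2 and 61.2 CPM in DMDD liposome and 50.1, 47.3 and 38.9 CPM in model (0.37 ± 0.13), also without overlap. Cybb, the membrane-bound catalytic subunit, stood at 0.28 ± 0.35, and its groups overlapped. Only model replicate 3 was low for Cybb, at 45.8 CPM against 82.0 to 129 CPM in DMDD liposome and 109.9 and 121 CPM in the other model libraries, and without it the fold change was -0.05.

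For 5 of the 6 genes whose groups did not overlap, the bases ahead of the first listed start are shown, since PU.1 and C/EBP factors are known to act at promoters of such genes. Ncf4 had no entry. The sequences are from RefSeq (GRCm38.p6), 250 bases up to the start, 5′ to 3′ on the gene's strand. This build is another than the mm9 that the submitters' notes name, and the gene counts themselves carry no coordinates. Capitals mark GAGGAA, the core letters bound by PU.1, and TTGCNNAA, a C/EBP motif, on either strand; CACGTG, an E-box, was searched too. No matches overlapped in these 5 sequences.
Fcgr3, chr1:171059404-171059653, minus strand: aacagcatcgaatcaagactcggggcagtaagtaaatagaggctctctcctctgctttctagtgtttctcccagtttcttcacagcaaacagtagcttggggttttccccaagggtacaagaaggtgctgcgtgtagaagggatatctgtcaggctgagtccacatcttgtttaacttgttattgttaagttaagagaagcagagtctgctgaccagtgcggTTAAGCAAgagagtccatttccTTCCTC
F13a1, chr13:37050245-37050494, minus strand: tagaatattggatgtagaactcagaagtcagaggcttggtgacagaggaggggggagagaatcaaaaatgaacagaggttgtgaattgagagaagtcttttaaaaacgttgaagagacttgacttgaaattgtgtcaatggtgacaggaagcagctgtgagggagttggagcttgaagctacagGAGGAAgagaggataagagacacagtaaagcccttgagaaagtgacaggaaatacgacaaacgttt
Stab1, chr14:31168642-31168891, minus strand: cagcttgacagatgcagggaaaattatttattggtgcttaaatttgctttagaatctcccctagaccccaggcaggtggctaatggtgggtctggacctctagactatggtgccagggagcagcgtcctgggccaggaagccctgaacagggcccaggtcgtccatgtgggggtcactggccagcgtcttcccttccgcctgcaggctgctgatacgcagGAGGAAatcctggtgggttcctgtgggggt
Lyz2, chr10:117282273-117282522, minus strand: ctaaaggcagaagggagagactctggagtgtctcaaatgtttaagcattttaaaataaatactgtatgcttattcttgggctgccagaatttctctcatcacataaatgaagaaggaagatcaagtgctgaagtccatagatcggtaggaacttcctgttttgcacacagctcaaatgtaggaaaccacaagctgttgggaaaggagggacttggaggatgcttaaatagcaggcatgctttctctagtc
Ncf1, chr5:134229626-134229875, minus strand: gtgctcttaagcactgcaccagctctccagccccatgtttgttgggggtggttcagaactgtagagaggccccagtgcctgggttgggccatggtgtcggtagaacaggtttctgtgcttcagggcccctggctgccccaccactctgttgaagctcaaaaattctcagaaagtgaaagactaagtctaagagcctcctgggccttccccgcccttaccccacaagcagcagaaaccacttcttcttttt
In Fcgr3 the reverse of GAGGAA starts 6 bases before the start and a C/EBP match starts 28 bases before it. GAGGAA starts 66 bases before the start in F13a1 and 30 bases before it in Stab1, while Lyz2 and Ncf1 hold none of the 3 motifs in this window. Fcgr3 and F13a1 also have a second listed start. The window of that start holds the same matches in Fcgr3 and none of the 3 motifs in F13a1. An entry was found for 30 of the 38 members. Counting the first listed start of each, 12 of the 30 (40.0%) held GAGGAA, beside 22.9% of the 12835 genes of the deposited table with an entry. The C/EBP motif was held by 4 (13.3%), beside 7.99%, and CACGTG by 0 of 30, beside 7.74%. Such matches are a description of letters and not of bound sites.

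Other genes of these pathways were read from lists of their own. Of 20 further macrophage genes, 16 were positive and 4 negative, with a median of 0.48. EdgeR called 0 of them. At an unadjusted p under 0.05 in edgeR, 7 were higher and 0 lower, where the background was 4.34% higher and 3.31% lower. DESeq2 called 1, Mertk, as higher, where the background was 0.214% higher. Without model replicate 1, edgeR called Mertk (adjusted p = 0.0377), where the background was 0.327% higher. In that setting DESeq2 called 6 of the 20, all higher, where the background was 3.19% higher. Mertk, a receptor for dying cells, measured 18.1, 16.3 and 23.0 CPM in DMDD liposome and 7.13, 6.13 and 4.99 CPM in model (1.65 ± 0.22). Sirpa, the receptor for CD47 that restrains phagocytosis, measured 167, 172 and 171 CPM in DMDD liposome and 149, 118 and 125 CPM in model (0.38 ± 0.11). Neither gene's groups overlapped, as in 5 of the 20, all higher, beside 7.21% of all genes tested. Both genes were named for their small unadjusted p, a choice that favours groups without overlap. Of 15 partners in lipid uptake, storage and efflux, 11 were positive and 4 negative, with a median of 0.18. EdgeR and DESeq2 called 0, with 1 higher and 3 lower at an unadjusted p under 0.05 in edgeR. Without model replicate 1, edgeR called 1 of them higher, Abca1, which exports cholesterol (adjusted p = 0.0377), and DESeq2 called 2 higher and 2 lower, where the background was 3.12% lower. With all libraries, Plin2, which coats lipid droplets, stood at 0.43 ± 0.16, and Fabp5, a fatty acid carrier, at -0.70 ± 0.27.

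Partners of the CSF1 receptor, DAP12 and Fc receptors numbered 12 in the table, with 8 positive, 4 negative and a median of 0.18. EdgeR and DESeq2 called 0 of them. At an unadjusted p under 0.05 in edgeR, 1 was higher, where the background was 4.34% higher. Without model replicate 1, edgeR called 0 and DESeq2 called 1, Syk, as higher, where the background was 3.19% higher. Syk, the kinase that binds phosphorylated ITAMs, measured 49.7, 43.4 and 40.9 CPM in DMDD liposome and 32.3, 25.7 and 29.0 CPM in model (0.62 ± 0.14). Its groups did not overlap, as in 4 of the 12, all higher, beside 7.21% of all genes tested. Vav1, an exchange factor for Rac proteins, stood at 0.26 ± 0.12. The ligand genes of the CSF1 receptor, Csf1 and Il34, stood at -0.22 ± 0.19 and -0.28 ± 0.20. Of 4 further NADPH oxidase partners, 3 were positive and 1 negative, with a median of 0.26 and 0 called by edgeR or DESeq2. The highest fold change was that of Rac2, the small GTPase of the phagocyte oxidase. Rac2 measured 87.5, 73.3 and 75.6 CPM in DMDD liposome and 59.1, 51.1 and 44.0 CPM in model (0.62 ± 0.14). Its groups did not overlap, as in 3 of the 4, beside 7.21% of all genes tested.

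**Figure D4:**
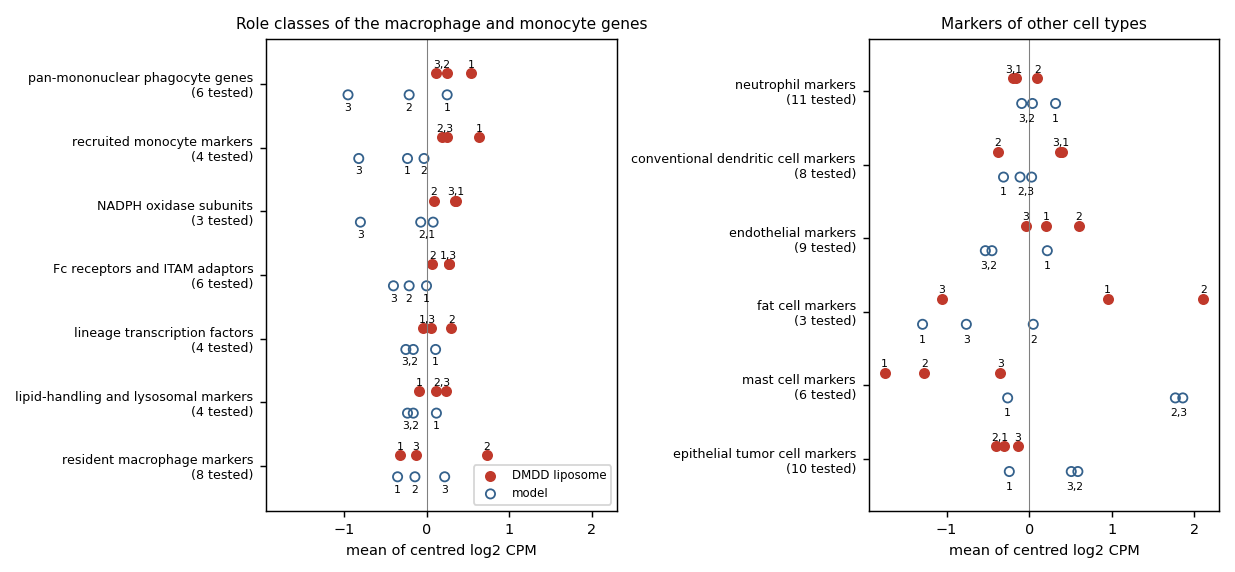
Mean of centred log2 CPM of each list in each library, with filled points for DMDD liposome and open points for model and the replicate number beside each point; macrophage and monocyte role classes are on the left and markers of other cell types on the right. Model replicate 3 is lowest for the upper 6 classes on the left and second highest for resident markers, and on the right the mast cell and epithelial lists place model replicate 1 apart from model replicates 2 and 3.

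Several members are also made by other cells, so the markers of those cells are given beside them. Neutrophils share Lyz2, the oxidase genes, Tyrobp, Fcer1g and Cebpb. Neutrophil markers were 5 positive and 6 negative of 11 tested, with a median of -0.02, and summed to 524 to 814 CPM in DMDD liposome and 489 to 616 CPM in model. Mmp9, a matrix protease that other cells also make, was most of that sum except in model replicate 1, where it was 202 of 489 CPM. Its fold change stood at 0.60 ± 0.27. Without Mmp9 the neutrophil markers summed to 162, 211 and 140.2 CPM in DMDD liposome, against 287, 227 and 247 CPM in model. These sums did not overlap and were lower in DMDD liposome. Over the 10 genes tested, 4 were positive and 6 negative, with a median of -0.17. S100a9 and S100a8 were the highest of these genes in every library and weighed most in the sums. S100a9, a calcium-binding protein abundant in neutrophils, measured 48.4, 73.2 and 38.8 CPM in DMDD liposome and 113, 85.5 and 107 CPM in model (-0.93 ± 0.23). DESeq2 called it lower at an adjusted p of 0.0438, where the background was 0.194% lower. S100a8, its partner, stood at -0.64 ± 0.25, and the receptor genes Cxcr2 and Csf3r at -0.63 ± 0.29 and -0.32 ± 0.21. Of the other tested neutrophil markers, Retnlg stood at -0.76 ± 0.33 and Ltf at 0.21 ± 0.58. Ngp, Mmp8 and Il1r2 stood at 0.03 each and Camp at -0.02, so these markers differed in direction. Conventional dendritic cell markers were 6 positive of 8, with a median of 0.12. Fscn1, which other cells also make, was 348 to 438 CPM in DMDD liposome and 295 to 408 CPM in model and thus most of their sum, and the other markers summed to 38.4, 25.3 and 39.4 CPM in DMDD liposome and 26.3, 33.0 and 36.6 CPM in model, with the groups interleaved. Mast cells share Fcer1g, and their markers were lower, 0 of 6 positive with a median of -2.17 and sums of 7.79 to 19.9 CPM in DMDD liposome and 22.3 to 91.5 CPM in model. DESeq2 called 2 of these 6 lower, beside the same background of 0.194%. Epithelial tumor cell markers, of which 2 of 10 were positive, had a median of -0.58 and summed to 3865 to 4789 CPM in DMDD liposome and 4165 to 7029.7 CPM in model. Of these 10, DESeq2 called 1 lower. T cell markers summed to 20.8 to 91.5 CPM in DMDD liposome and 33.6 to 41.4 CPM in model, and B cell markers to 1.21 to 1.77 CPM in DMDD liposome and 0.394 to 1.29 CPM in model. Skeletal muscle markers summed to 104, 10.9 and 235 CPM in DMDD liposome replicates 1 to 3 and to 28.8 to 32.7 CPM in model. Erythroid markers summed to 23.0 to 37.1 CPM in DMDD liposome and 9.74 to 31.7 CPM in model. None of the listed markers in the table was at 0 in all 6 libraries. The part of these other cells in the values of the members was not tested.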

How the data were processed

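Per the labels' protocols, Trizol was used to extract total RNA from tumors, and libraries came from the NEBNext Ultra RNA kit. Groups and replicate numbers came from the sample descriptions. Per the file headers, the deposited table gives raw counts of reads for each gene, with 0 per-sample columns that matched no sample. The normalized signal columns were made by the authors as counts divided by a factor per library, as the constant ratio of the columns shows. The authors also deposited FPKM, used here only for levels between genes. The deposited log2 fold changes, p-values and adjusted p-values are for model over DMDD liposome. The submitters' processing notes name DESeq2 and genome build mm9. The aligner, counter, annotation and strandedness were not given in the sources used here.

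The test on counts was run with edgeR 4.0.16 (R 4.3.3): filterByExpr (minimum count 10, minimum total 15), TMM, quasi-likelihood test (two-sided) and Benjamini-Hochberg adjustment over 12891 genes at 0.05. The SE is the log2 fold change divided by the square root of its F statistic. CPM is scaled by TMM, log2 CPM uses a prior count of 2, and CPM precision is limited by counting error near 3 counts. DESeq2 1.42.0, other size factors, no filter on low values, a replicate block and leaving out each library were alternatives, and DESeq2 without each library was added after seeing the data. The fits were tested on simulated data. Symbols matched a mouse gene name table for 16720 of 16763 genes and for all 38 members. Shared 50-base stretches and exon overlaps were computed from GENCODE transcripts and annotation of another build, by gene name.

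The members, role classes and lists were chosen with earlier results of these data known. Every member is accounted for. Values in each library are given for members whose groups do not overlap, the 2 of each class with the highest mean FPKM and the 1 with the largest absolute fold change, and from each further list of partner genes the 2 with the smallest unadjusted p are named, except for an item that is not reported here. Cd163, Ly6c2, Gpnmb, Csf1r, Fcgr2b, Csf1, Il34, Abca1 and the single genes of other cell types were added after their values were seen.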

Additional observations from a re-analysis of the deposited data

How the results depend on the processing

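With all 6 libraries, edgeR called 0 genes under each of these alternatives: size factors of DESeq2, all genes kept, a threshold of 0.01 and a replicate block. DESeq2 called 59. Leaving out 1 library gave 0 to 112 calls in edgeR, with 112 without model replicate 1 and 0 in each other fit, and 18 to 867 in DESeq2: 20, 128 and 87 without DMDD liposome replicates 1, 2 and 3, and 867, 30 and 18 without model replicates 1, 2 and 3. The members' median log2 fold change of 0.39 was 0.38 with DESeq2 size factors, 0.37 without a filter and 0.38 in DESeq2. It ranged from 0.25 to 0.53 in edgeR and from 0.25 to 0.52 in DESeq2 when 1 library was left out, and was 0.36 without Lyve1, Stab1, Pf4 and F13a1, which endothelium or platelets also make. The causes were not tested.

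Replicate numbers are shared by the groups without any stated link, and deviations of same-numbered libraries correlated across genes at 0.088, 0.114 and 0.121, so no pairing was assumed. With the replicate block the members' median was 0.41, 31 of 36 were positive and 0 were called. Members whose sign turned when 1 library was left out numbered 0 to 4 per fit in edgeR. Counting error limits Retnla, Vsig4 and Lyve1.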
